A study of Mus musculus with 6 samples.

Results

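The genes described here encode the voltage-gated calcium channels, the voltage-gated sodium channels, the HCN channels and the sodium leak channel Nalcn. They were taken from the feature lists by symbol: every Cacna1, Cacna2d, Cacnb and Cacng gene, every numbered Scn gene of the alpha (a) or beta (b) kind, every numbered Hcn gene, and Nalcn. The rule found 45 genes among the 27514 genes that the 3 deposited matrices share. They are 10 calcium channel pore (alpha-1) genes, 4 alpha-2-delta genes, 4 beta and 8 gamma subunit genes, 10 sodium channel pore genes, 4 sodium channel beta genes, 4 Hcn genes and Nalcn. All 45 were listed in all 3 pools, with Scn2a under its older symbol Scn2a1 in the chow and DIO lists.

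Calcium channels open when the membrane depolarises and let calcium in, which drives transmitter and hormone release, firing patterns and calcium-dependent transcription. The pore subunit sets the type of current, while beta and alpha-2-delta subunits help to bring the pore to the membrane and to the synapse. Alpha-2-delta-1 and alpha-2-delta-2, from Cacna2d1 and Cacna2d2, bind gabapentin. Several gamma subunits serve as partners of AMPA-type glutamate receptors more than of calcium channels. Sodium channels carry the upstroke of the action potential, HCN channels carry a depolarising current that opens on hyperpolarisation and paces rhythmic neurons, and Nalcn carries a steady sodium leak that helps set the resting potential.

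Nuclei of mouse hypothalamus had been sorted for NeuN, a neuronal nuclear protein, and captured on the 10x Genomics platform with the 3' v3 kit. The mice had diet-induced obesity (DIO, labelled hfd), were ob/ob mice on chow (OB), which lack functional leptin, or were fed chow, and each of these formed 1 pool. Within a pool, one hashtag stood for rapamycin, which blocks the mTORC1 kinase complex, and the other for vehicle treatment. The labels give no dose, duration, age, sex or number of mice behind a hashtag, so each hashtag in a pool is 1 sample, and p-values below measure only the spread between these samples. Values are CPM, the UMIs (molecules counted once by their tag) of a gene divided by all UMIs of shared genes in the sum over nuclei and scaled to the same total in every sample. Pooling, capture and mice cannot be told apart between pools.

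A hashtag was called for 28599 nuclei, of which 25683 (89.8%) fell in 27 neuronal clusters made without the 45 genes. The summed neuronal samples held between 5794957 and 33978673 UMIs of shared genes. The OB pool was shallower, with a median of 2804.5 UMIs per barcode, against 5826 in chow and 5572 in DIO, and 3731 of its barcodes had no hashtag call. Of those, 3084 would be vehicle by the ratio of the tags, so counts of genes that rest on OB vehicle nuclei, and calls that are lost, are also given with hashtags called by that ratio. Pairs of pools shared 31 to 38 barcodes. For class comparisons a neuronal nucleus was glutamatergic with at least 1 UMI of Slc17a6, the vesicular glutamate transporter, and none of the GABA genes Slc32a1, Gad1 and Gad2, and GABAergic in the converse case. This gave 6277 glutamatergic and 9136 GABAergic nuclei, with 9146 nuclei having neither and 1124 having both. Of the nuclei with neither, 5776 lay in glutamatergic and 2916 in GABAergic clusters, so the gate left out more of the glutamatergic clusters. In chow vehicle those with neither had a median of 5144 UMIs, against 6469 in glutamatergic and 5978 in GABAergic nuclei.

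Cacna2d1 and Cacna2d3 were the pair with the strongest opposite contrast between the classes among the alpha-2-delta genes. For both, the 250 bases before an annotated start are shown, to give sequence context. Sequences are from RefSeq (GRCm38.p6), 5′ to 3′ on the gene's own strand, and capitals mark the letters GGGCGG, a GC box, read on either strand (CCGCCC). The Cacna2d1 window is chr5:15934441-15934690 on the plus strand, and the Cacna2d3 window is chr14:29721865-29722114 on the minus strand. Both lie inside the gene spans used here, which begin at 15934264 for Cacna2d1 and, on the minus strand, at 29722775 for Cacna2d3. The starts taken are thus not the outermost ones.
Cacna2d1: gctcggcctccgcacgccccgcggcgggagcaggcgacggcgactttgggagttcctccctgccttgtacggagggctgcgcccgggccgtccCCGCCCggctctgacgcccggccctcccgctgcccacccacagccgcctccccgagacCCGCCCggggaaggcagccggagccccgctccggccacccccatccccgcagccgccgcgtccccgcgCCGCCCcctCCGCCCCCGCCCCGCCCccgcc
Cacna2d3: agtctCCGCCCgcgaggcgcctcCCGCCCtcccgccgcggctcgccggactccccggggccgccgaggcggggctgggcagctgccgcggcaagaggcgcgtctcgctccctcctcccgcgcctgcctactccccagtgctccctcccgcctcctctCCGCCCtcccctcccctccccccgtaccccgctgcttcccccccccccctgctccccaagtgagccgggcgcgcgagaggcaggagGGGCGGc
The Cacna2d1 window held 6 GC boxes, some of them overlapping, and 36 CG dinucleotides, and the Cacna2d3 window held 4 GC boxes and 30 CG dinucleotides. A GC box occurred in 32.7% of the 32851 windows of this length. CG dinucleotides were fewer in 97.4% of all windows than in that of Cacna2d1 and in 94.1% than in that of Cacna2d3. Neither window held the TATA box letters TATAAA, found on either strand in 12.4% of windows, nor TGACGTCA, the palindromic cyclic AMP response element, found in 1.55%. Both starts thus lay in CG-rich sequence, and these letters say nothing about which factors act there.

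In hypothalamic neurons, 17 of the 45 genes stood at or above 100 CPM in each of the 6 samples, and 34 at or above 10 CPM. Among the 17 were Cacna1a, Cacna1b, Cacna1c, Cacna1d and Cacna1e, 3 alpha-2-delta genes (Cacna2d1, Cacna2d2, Cacna2d3), Cacnb2 and Cacnb4, the sodium channel genes Scn1a, Scn2a, Scn3a, Scn8a and Scn9a, and Nalcn. A further 9 genes stayed under 5 CPM in all 6 samples. These were Cacna1f, known from the retina, Cacna1s, the skeletal muscle pore, the gamma genes Cacng1 and Cacng6, Cacna2d4, the sensory neuron genes Scn10a and Scn11a, the muscle gene Scn4a, and Scn4b. Scn9a, best known from pain-sensing neurons, was not among the low genes, at 278 to 306 CPM. At this depth a gene with no UMI could still be present at up to 0.0883 CPM in the deepest sum and 0.518 CPM in the OB vehicle sum (3 counts, for counting error only).

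Levels of different genes are set side by side only per length, as CPM per 100 kb of gene span. On this scale Scn2a was highest, with 258, followed by Cacng8 with 246 and Cacna1a with 225. Cacna2d1 stood at 194 and Cacna2d3 at 59.5, so per length Cacna2d1 was the more abundant. Whether UMIs of this kit grow with span in proportion was not tested.

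The clearest pattern among the 45 genes was a contrast between neuron classes within the alpha-2-delta family. Glutamatergic nuclei had much more Cacna2d1, and GABAergic nuclei more Cacna2d3 and Cacna2d2. Each class was summed in each of the 6 samples, and the 12 sums were fitted in edgeR (quasi-likelihood test, TMM, hashtag sample as block, Benjamini-Hochberg adjustment over 14922 genes). The filter on low counts left out Cacna1s, Cacng6, Scn4a, Scn4b, Scn10a and Scn11a. Of the 39 genes that passed it, 9 rose and 6 fell in glutamatergic nuclei. Over all genes tested, 11.7% rose and 10.2% fell, so 15 of 39 stands against 21.9% of all genes. The median log2 fold change was 0.02 over the 39 genes and -0.02 over all.

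Cacna2d1 was at 1279 and 1288 CPM in glutamatergic nuclei of the DIO pool (rapamycin, then vehicle), 1382 and 1386 in OB and 1274 and 1224 in chow. In GABAergic nuclei it was at 372 and 456 CPM in DIO, 355 and 550 in OB and 344 and 338 in chow. The lowest glutamatergic value lay far above the highest GABAergic one, and the GABAergic values spread more than the glutamatergic ones. The log2 fold change was 1.78 (SE 0.05, edgeR adjusted p = 1.3e-24), and it was positive in 6 of 6 samples, between 1.33 and 1.96.

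Cacna2d3 went the other way. Its level in glutamatergic nuclei was 380 and 388 CPM in DIO, 389 and 358 in OB and 338 and 294 in chow, against 667 and 698 in DIO, 604 and 633 in OB and 594 and 586 in chow in GABAergic nuclei. The classes did not overlap, and the log2 fold change was -0.78 (SE 0.03, edgeR adjusted p = 6.7e-19). Cacna2d2 had 85.1 to 98.5 CPM in glutamatergic and 129 to 152 CPM in GABAergic nuclei, again with no overlap (log2 fold change -0.52, edgeR adjusted p = 5.7e-13). Cacna2d4 was too low to place, at 2.48 CPM at the median in glutamatergic and 1.92 CPM in GABAergic nuclei.

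**Figure D1:**
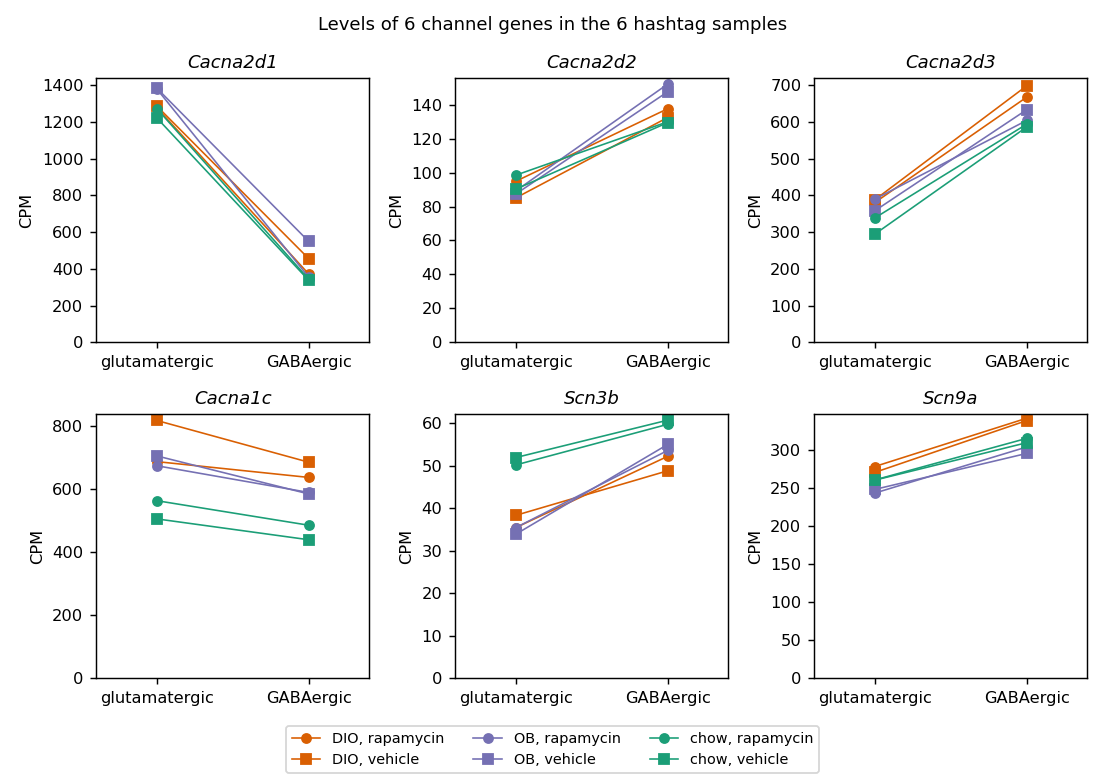
CPM (vertical axes, from 0) of 6 channel genes in glutamatergic and GABAergic nuclei of the 6 hashtag samples; each line is 1 sample, colours are pools, circles rapamycin and squares vehicle. Cacna2d1 and Cacna1c are higher in glutamatergic nuclei of every sample, and Cacna2d2, Cacna2d3, Scn3b and Scn9a are lower in every sample.

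Among the pore genes of calcium channels, 3 of 9 tested rose in glutamatergic nuclei and none fell. Cacna1c, an L-type pore, had a log2 fold change of 0.25 (SE 0.03), with 505 to 816 CPM in glutamatergic and 439 to 684 CPM in GABAergic nuclei. The ranges overlapped, with the chow pool lowest in both classes, and the gene was higher in glutamatergic nuclei in 6 of 6 samples. The T-type pores Cacna1h (log2 fold change 0.23, edgeR adjusted p = 0.0093) and Cacna1g (0.15, edgeR adjusted p = 0.0087), which open near resting potential, also rose. Both calls were lost with DESeq2 and without the DIO pool, and that of Cacna1g also with library totals. The third T-type gene, Cacna1i, had a value of 0.11 and did not pass (edgeR adjusted p = 0.15). Cacna1a, Cacna1b, Cacna1d and Cacna1e, the pores of P/Q-, N-, L- and R-type channels, had log2 fold changes between -0.02 and 0.05, and none passed.

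Of the beta subunit genes, Cacnb3 rose in glutamatergic nuclei (log2 fold change 0.27, SE 0.08, edgeR adjusted p = 0.0073), a call that was lost with DESeq2, without the DIO pool and without the chow pool. Cacnb2 (-0.07) and Cacnb4 (0.06) did not pass. In the gamma family Cacng5 fell by 0.88 on the log2 scale (SE 0.11, edgeR adjusted p = 2.3e-07), at 4.24 to 6.28 CPM in glutamatergic and 7.48 to 14.5 CPM in GABAergic nuclei. Cacng3 fell by 0.16, with edgeR adjusted p = 0.0043. Cacng2, which encodes the AMPA receptor partner stargazin, had a value of 0.04 and did not pass.

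Sodium channel pores differed less. Scn3a (log2 fold change 0.13) and Scn1a (0.11) rose in glutamatergic nuclei, although the Scn1a call was lost under 3 alternatives, among them library totals in place of TMM. Scn9a fell by 0.25 (SE 0.03, edgeR adjusted p = 1.7e-08), with 244 to 279 CPM in glutamatergic and 296 to 342 CPM in GABAergic nuclei and no overlap. Scn2a (0.03) and Scn8a (0.02), the pores that carry most of the sodium current of excitatory neurons elsewhere in the brain, did not pass. Among the beta subunits, which modify gating and adhesion, Scn3b fell by 0.33 (SE 0.05, edgeR adjusted p = 5.2e-06).

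Hcn2, Hcn3 and Hcn4 had log2 fold changes between 0.02 and 0.14 and did not pass. Nalcn had a value of -0.07 and did not pass (edgeR adjusted p = 0.12). With library totals in place of TMM, 7 of the 39 genes rose and 8 fell, and the split over all genes moved to 1473 higher and 2702 lower, against 1750 higher and 1518 lower with TMM.

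**Figure D2:**
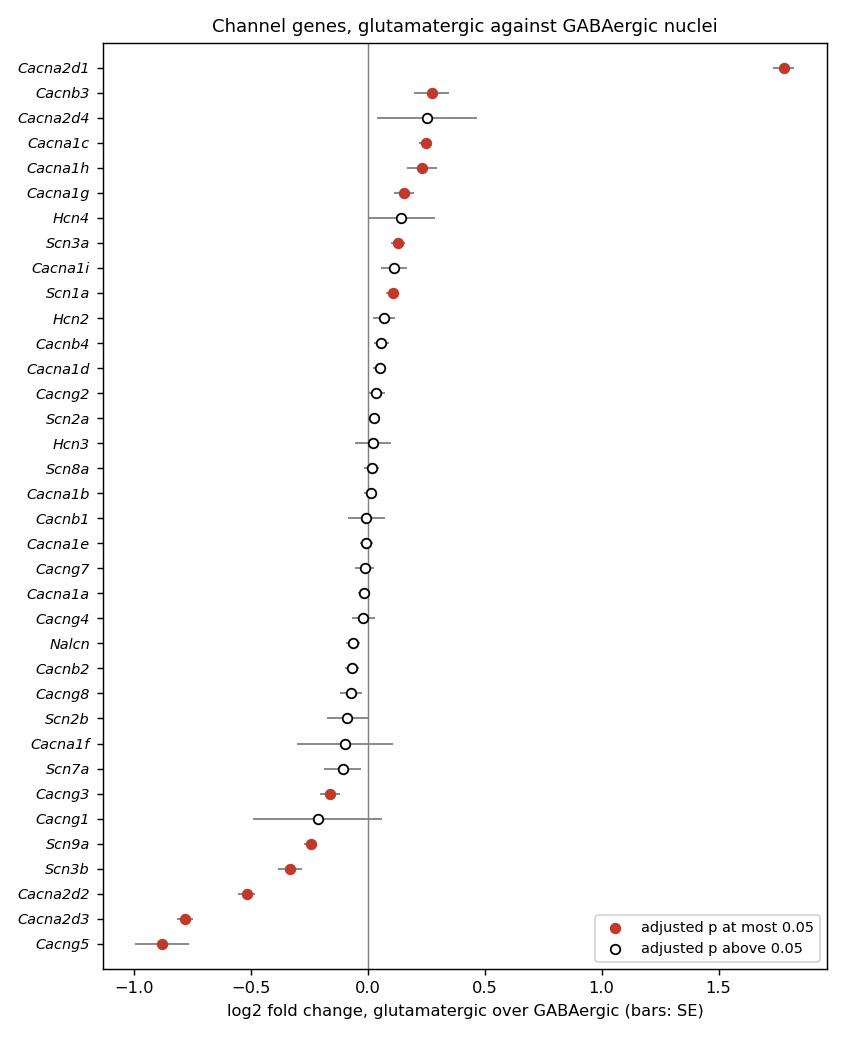
Log2 fold change of 36 channel genes in glutamatergic over GABAergic nuclei (points, edgeR) with its SE (bars), ordered by size; filled points have an adjusted p of at most 0.05. Cacna2d1 stands alone at 1.78, and Cacng5, Cacna2d3 and Cacna2d2 lie lowest.

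A list of 48 partner genes of these channels was read in the same fit. Of 46 tested, 19 rose and 7 fell in glutamatergic nuclei, with a median log2 fold change of 0.07, against 11.7% and 10.2% of all genes and a median of -0.02 over all. Among those that rose were the calcium release channels Ryr3 (0.64), Ryr2 (0.30) and Itpr1 (0.53), which empty internal calcium stores, and Fgf13 (0.39), which binds sodium channels. The related release channels Ryr1 (0.03) and Itpr2 (-0.09) did not pass. The Nalcn partners Unc79 (0.23), Unc80 (0.09) and Fam155a (0.16) rose, while Nalcn itself did not pass. Among those that fell were Stac (-1.09), a binding partner of L-type channels, and the plasma membrane calcium pumps Atp2b1 (-0.26), Atp2b2 (-0.22) and Atp2b3 (-0.15), while the fourth pump, Atp2b4 (0.21), rose.

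Over 13 clusters with mainly glutamatergic nuclei, Cacna2d1 ranged from 347 to 1970 CPM (mean over samples) with a median of 955 CPM, against 235 to 1621 CPM and a median of 351 CPM over 13 GABAergic clusters. Of the glutamatergic clusters, 12 of 13 lay above that GABAergic median. One further cluster was mixed. The high GABAergic values were those of the histaminergic-like cluster (1621 CPM) and of the cluster with markers of melanin-concentrating hormone neurons (1184 CPM). The latter also had Slc17a6 at 59.4 CPM, beside 162.6 CPM of the GABA genes. Slc17a6 was at most 28.1 CPM in the other GABAergic clusters. The highest Cacna2d1 level was in an unnamed glutamatergic cluster led by Gpr149, Lama1 and Nr5a1 (1970 CPM). Cacna2d3 ranged from 129 to 1141 CPM over glutamatergic and from 334 to 1039 CPM over GABAergic clusters, with medians of 331 and 529 CPM. These ranges overlapped widely: 6 of 13 glutamatergic clusters lay at or above the lowest GABAergic one, and 4 lay above the GABAergic median, among them the largest glutamatergic cluster, of 3033 nuclei, at 589 CPM. The highest Cacna2d3 level was in a glutamatergic cluster led by Ntng2 and Lef1, which at 347 CPM had the lowest Cacna2d1 of its class, followed by a GABAergic cluster led by Mbnl3 and Nts. Over all 27 clusters the levels of Cacna2d1 and Cacna2d3 had a Spearman correlation of -0.48, as a description of clusters that share libraries. The genes most like Cacna2d3 by the same measure, among 3866 genes, were Ercc6l2 (0.70), Dennd4a (0.63), Nhsl2 (0.62), Acot7 (0.62) and Chst11 (0.61). These are the highest of 3866 values over 27 clusters, and whether unrelated genes would reach such values was not tested.

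A cluster took a name from markers that are no channel genes, and its channel levels are described without a test over the samples with at least 20 of its nuclei. Suprachiasmatic-like neurons, marked by Vipr2 and Syt10 and named for the circadian pacemaker nucleus, had the highest level of Nalcn of the 27 clusters, at 823 ± 109 CPM (SD, n = 5 samples), against a median of 520 CPM over clusters. They were also highest for the L-type pore Cacna1d (694 ± 47.1 CPM, median over clusters 414) and for Cacng5 and Hcn4. Scn1a was low in them, at 152 ± 48.0 CPM against a median of 302 CPM over clusters.

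Histaminergic-like neurons, marked by Hdc, Prph and Maob, stood apart in several families (n = 6 samples). They had the highest levels of the sodium pores Scn3a (316 ± 20.9 CPM), Scn8a (338 ± 27.4 CPM) and Scn2a (458 ± 84.9 CPM) and of the N-type pore Cacna1b (438 ± 47.5 CPM). Other clusters came within the SD for Scn2a (suprachiasmatic-like, 441 CPM) and for Cacna1b (melanin-concentrating hormone-like, 424 CPM). The histaminergic-like cluster had the lowest levels of Scn1a (123 ± 25.3 CPM), Cacna1c (301 ± 77.0 CPM) and of the T-type pores Cacna1g (5.57 ± 4.72 CPM) and Cacna1i (3.02 ± 3.86 CPM, 8 UMIs). Paraventricular-like neurons were within the SD for Scn1a (137 CPM) and Cacna1i (3.28 CPM). The third T-type pore, Cacna1h, was at 4.83 ± 3.35 CPM in histaminergic-like neurons, so all 3 T-type genes were near the bottom of the range. For comparison, the median over clusters was 52.8 CPM for Cacna1g, 29.9 CPM for Cacna1i and 21.1 CPM for Cacna1h.

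Paraventricular-like neurons, marked by Avp, Oxt and Sim1, were lowest for Cacna2d3 (129 ± 27.6 CPM), Cacnb2 (162 ± 21.8 CPM) and Cacna1d (354 ± 34.5 CPM) in 6 samples. Cacna2d3 was about as low in unnamed glutamatergic clusters led by Myo5b (136 CPM) and by Ebf3 and Calcr (137 CPM). For Cacnb2 the median over clusters was 742 CPM, so the level in these neurons was far below it. Orexin-like neurons were highest for the R-type pore Cacna1e (965 ± 106 CPM) and for Cacna1h (41.2 ± 14.2 CPM), with a low Cacnb4 (95.6 ± 22.4 CPM) and a high Cacnb2 (1314 ± 117 CPM). Agrp-like neurons, which drive feeding, had Cacnb2 at 1211 ± 137 CPM, Cacna1d at 502 to 620 CPM over the 6 samples and Cacna1e at 773 ± 99.7 CPM, all above the medians over clusters of 742, 414 and 574 CPM. In them Cacna2d1 (351 ± 41.8 CPM) was at the median of the 13 GABAergic clusters, to which they belong. Their Cacna2d3 (340 ± 92.7 CPM) was below the GABAergic median of 529 CPM. Thalamic-like neurons, present with enough nuclei in 2 samples only, had 1042 and 2013 CPM of Cacna1c and 98.6 and 187 CPM of Cacna1g. No cluster was named for Pomc neurons, since too few of their markers passed the rule.

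**Figure D3:**
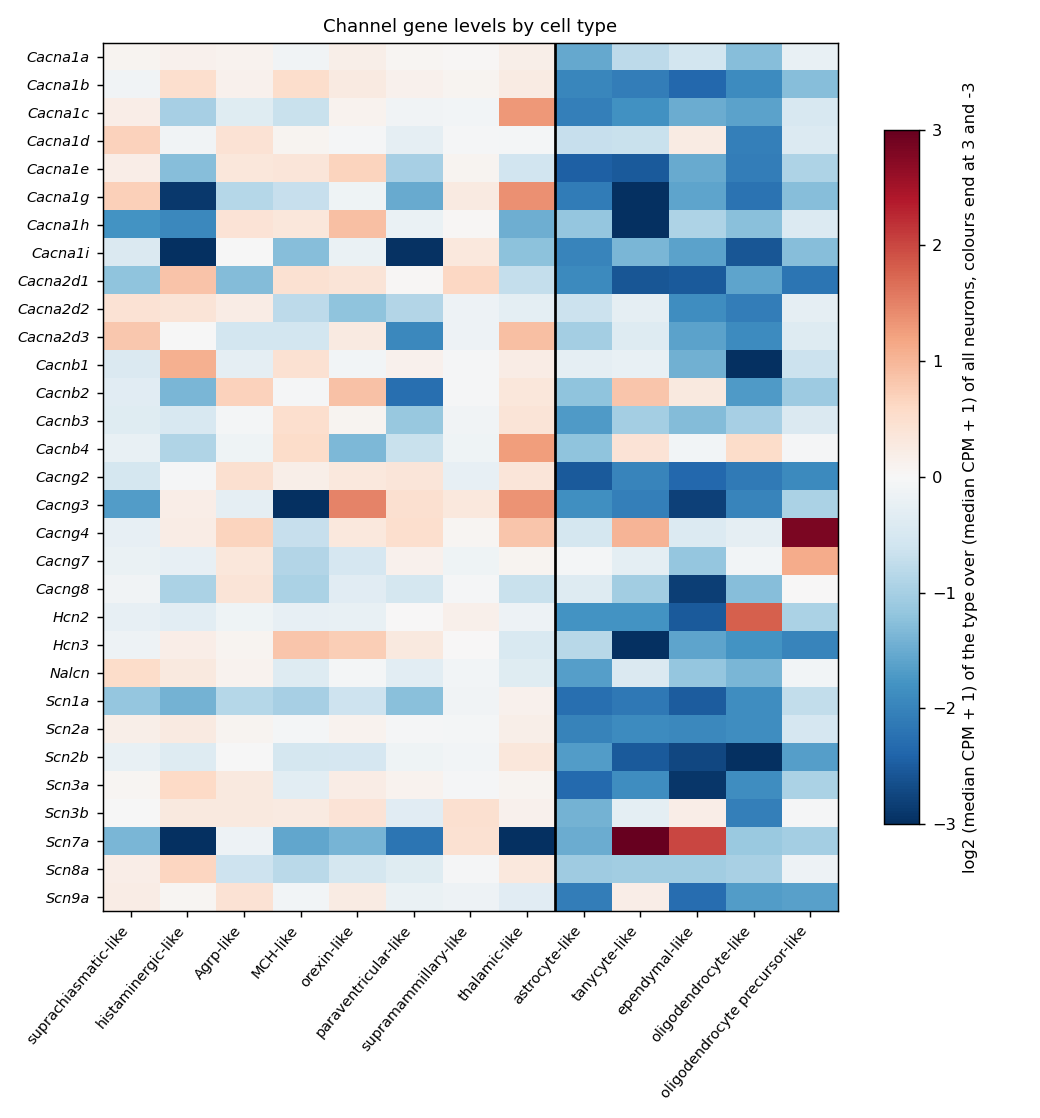
Log2 ratio of the median CPM over samples (plus 1) of each type to that of all neurons (plus 1), for 31 channel genes at or above 10 CPM in every sample; neuron types stand left of the black line and other cells right of it, and colours end at 3 and -3. Red marks Scn7a in tanycyte- and ependymal-like cells, Cacng4 in oligodendrocyte precursor-like cells and Hcn2 in oligodendrocyte-like cells.

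Although the sort enriched neurons, other cells were present. Of the 34 genes at or above 10 CPM in every sample of neurons, 3 were far higher in them. Among the genes under 5 CPM in neurons, Cacna1s was at 13.4 CPM in ependymal-like cells (13 UMIs). Cacna2d4 was at 13.9 CPM in oligodendrocyte-like cells (12 UMIs). Scn7a encodes Nax, a channel that senses sodium concentration and is known from glia of the circumventricular organs. It was at 657 CPM at the median in tanycyte-like cells (546 to 1001 CPM in 4 samples) and 71.5 CPM in ependymal-like cells, against 17.0 CPM in neurons. The ependymal-like level was near that of a GABAergic neuronal cluster led by Pmfbp1 and Onecut2, at 62.0 CPM (mean over samples). Cacng4 was at 236 and 450 CPM in the 2 samples with enough oligodendrocyte precursor-like cells, against 47.1 CPM in neurons. Hcn2 was at 153 CPM at the median in oligodendrocyte-like cells (47.7 to 160 CPM in 5 samples), against 43.6 CPM in neurons. Cacnb2 was at 1302 CPM in tanycyte-like cells, against 731 CPM in all neurons. This lay within the range of neuronal clusters, which reached 1593 CPM, with orexin-like neurons at 1314 CPM.

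The study asked how rapamycin acts on the hypothalamus in leptin-resistant mice. With the pools taken as 3 replicates and the pool as a block, no channel gene passed the test for rapamycin. The pools differ in diet and genotype, so this fit tests a change shared by all 3. It does not test a change particular to leptin-resistant mice. In edgeR, 0 of 43 tested in all neurons, 0 of 39 in glutamatergic and 0 of 40 in GABAergic nuclei had an adjusted p of at most 0.05, where over all genes 0.387%, 0.0133% and 0.00% did. At an unadjusted p under 0.05 there was 1 gene in each fit (Cacna1f, Cacnb3 and Cacna2d1), where 5.65%, 4.14% and 4.35% of all genes were, and DESeq2 called 0 in each. The median log2 fold change of the genes was 0.01 in all neurons, -0.02 in glutamatergic and 0.01 in GABAergic nuclei, against 0.01, 0.00 and 0.01 over all genes tested. On simulated data with 2-fold changes the same fit found 89% of them in all neurons, 87% in glutamatergic and 90% in GABAergic nuclei, and smaller changes were not simulated. None of the 47, 46 and 46 partner genes tested in these fits was called either.

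Cacna2d3 had 512 and 524 CPM in DIO neurons (rapamycin, then vehicle), 495 and 479 in OB and 446 and 425 in chow. Its log2 fold change across the pools was 0.02 (SE 0.06, edgeR adjusted p = 0.9995). The 2 treatments of a pool lay closer to each other than chow lay to DIO or OB. Cacna2d1 in GABAergic nuclei had the lowest p of the channel genes. Its level there was 372 CPM with rapamycin and 456 with vehicle in DIO, 355 and 550 in OB, and 344 and 338 in chow. The log2 fold change across the pools was -0.29 (SE 0.08, edgeR adjusted p = 0.58), and no call was made. With no filter on low counts the same value had an edgeR adjusted p of 0.0073, and over all alternatives the adjusted p ranged from 0.0073 to 0.99998. In glutamatergic nuclei the value was 0.01.

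The difference between the classes in the rapamycin effect was tested as an interaction, and 0 of 39 channel genes passed in edgeR, where 0.00% of all genes did, with 2 at an unadjusted p under 0.05 (4.43% of all genes) and 0 by DESeq2. For Cacna2d1 the interaction was 0.28 (SE 0.08, edgeR adjusted p = 0.59). Without the chow pool it was 0.43 (edgeR adjusted p = 1.9e-04), and with no filter on low counts 0.28 (edgeR adjusted p = 0.0021). The fit without chow rests on the DIO and OB pools only, and its OB vehicle GABAergic sum holds 420 nuclei. In OB GABAergic nuclei the Cacna2d1 ratio fell under the 1.2-fold line with hashtags called by the tag ratio, as given below. Without the chow pool the value in all neurons was -0.22 (edgeR adjusted p = 0.042). In the chow pool the log2 ratio of rapamycin over vehicle nuclei for Cacna2d1 was 0.06 in glutamatergic and 0.03 in GABAergic nuclei.

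Within each pool, 1 rapamycin and 1 vehicle sample allow no test. A gene is called here past a 1.2-fold ratio of CPM with a 95% counting interval that excludes equality, among genes with 50 or more UMIs over the pair of sums. In DIO neurons 3 of 40 channel genes were called higher and 1 lower with rapamycin, where 7.92% and 2.82% of all genes were. Among these were Scn2b at 16.4 CPM with rapamycin and 13.3 with vehicle, Cacnb3 at 19.1 and 15.6, and, lower, Scn7a at 17.0 and 21.0. In OB neurons 2 of 38 were higher and 1 lower, where 5.29% and 2.97% of all genes were. Cacng8 had 66.0 CPM with rapamycin and 52.1 with vehicle, Cacna1h 25.0 and 19.3, and Cacna2d1 815 and 986. With hashtags called by the tag ratio, 1 was higher and none lower, since the log2 ratio of Cacna1h became 0.17 in place of 0.37 and that of Cacna2d1 -0.18 in place of -0.27, both under the 1.2-fold line. In chow neurons none of 39 was higher and 2 were lower, where 1.12% and 2.58% of all genes were. Scn2b had 14.7 CPM with rapamycin and 17.8 with vehicle, and Cacng5 6.18 and 7.72. By the tag ratio the Scn2b log2 ratio was -0.26 in place of -0.28, just under the 1.2-fold line. These shares were near those of all genes, and no channel gene was called higher in all 3 pools, as 0.0148% of all genes were, or lower in all 3, as 0.00740% were.

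**Figure D4:**
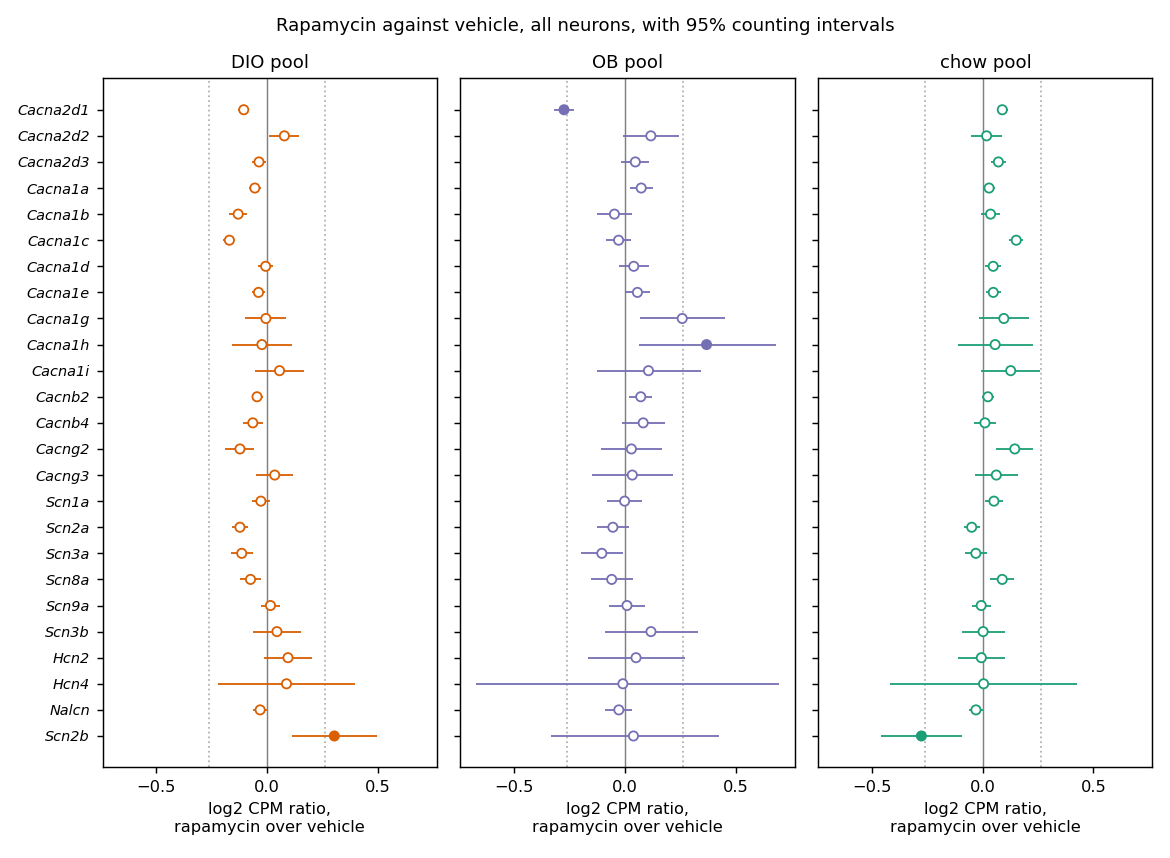
Log2 ratio of CPM in rapamycin over vehicle nuclei (points) of all neurons in the DIO, OB and chow pools, with exact 95% counting intervals (bars), for 24 genes named by rule and Scn2b. Dotted lines mark 1.2-fold, filled points are called, and most genes lie between the lines in all 3 pools.

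Within the classes between 1 and 4 genes were called per class and pool. In DIO glutamatergic nuclei 2 of 37 genes were higher (among them Cacnb3) and 2 lower (Scn7a, Hcn3), where 7.10% and 2.93% of all genes were. In DIO GABAergic nuclei Scn2b was higher and Cacna2d1 lower of 38, where 6.77% and 2.74% were. In OB glutamatergic nuclei 2 of 33 were higher and none lower, where 4.74% and 2.90% were. These were the neighbouring gamma genes Cacng7, at 69.3 CPM with rapamycin and 45.2 with vehicle, and Cacng8, at 66.8 and 39.9, both partners of AMPA receptors, counted on 60 and 53 UMIs in the vehicle sum. Their log2 ratios were 0.62 and 0.74, and 0.43 and 0.56 with hashtags called by the tag ratio, which gave 3 higher and none lower of 34 genes in this class. In OB GABAergic nuclei Cacng7 was higher and Cacna2d1 lower of 35, where 5.02% and 3.26% were, and by the tag ratio the Cacng7 value of 0.40 became 0.24, under the 1.2-fold line, with 3 higher and none lower of 36. In chow glutamatergic nuclei Cacnb1 and Cacnb3 were higher and Scn2b lower of 36, where 1.65% and 3.23% were. The Cacnb1 call was lost by the tag ratio (0.32), and its log2 ratio of 0.35 became -0.0138 when the class was taken from the whole cluster. In chow GABAergic nuclei Cacnb3 was higher of 36 and none was lower, where 1.55% and 2.86% were, and this call was lost by the tag ratio (0.31, against 0.34). Cacnb3 was called higher with rapamycin in glutamatergic nuclei of chow (19.2 CPM, against 14.5 with vehicle) and DIO (19.9, against 15.9), but not of OB.

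The Cacna2d1 difference in OB GABAergic nuclei was the largest of a well-counted channel gene, with a log2 ratio of -0.63 (95% counting interval -0.74 to -0.52). It was -0.29 (-0.35 to -0.23) in DIO and 0.03 (-0.04 to 0.09) in chow. With hashtags called by the tag ratio the OB value was -0.25, under the 1.2-fold line, and with clusters weighted alike in the rapamycin and vehicle sums it was -0.43. In DIO equal weights gave -0.15, under the 1.2-fold line. Equal weights used 11 clusters in OB and 18 in DIO, so the set of clusters changed with the weights, and the part of cluster makeup in these values was not tested. Cacna1c was lower with rapamycin in DIO (-0.17) and higher in chow (0.15), both under the 1.2-fold line.

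Between pools, the vehicle nuclei of DIO mice had higher levels of many channel genes than those of chow mice. Of 40 counted, 20 were called higher and 3 lower, where 16.2% and 23.0% of all genes were. The median log2 ratio was 0.27 over the channel genes and -0.04 over all. Cacna1c stood at 746 CPM in DIO and 469 in chow (log2 ratio 0.67), Cacng2 at 124 and 72.9 (0.77), Cacna1e at 631 and 474 (0.41), and Scn8a at 240 and 173 (0.47). All 3 T-type pores were higher: Cacna1h (0.63), Cacna1g (0.58) and Cacna1i (0.54). Cacna2d3 was at 524 CPM in DIO and 425 in chow (0.30), and Hcn4, a low gene, at 5.42 and 3.13 (0.79).

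Among the genes that were lower in DIO were the sodium channel beta subunits Scn2b, at 13.3 CPM in DIO and 17.8 in chow (-0.42), and Scn3b, at 43.8 and 56.1 (-0.36). By class, 14 of 36 genes were higher and 3 lower in DIO glutamatergic nuclei, where 13.4% and 20.6% of all genes were, and 16 of 38 higher and 3 lower in GABAergic nuclei, where 14.5% and 20.3% were. Scn1a (0.05), Scn2a (-0.04), Scn3a (-0.03) and Nalcn (0.04) were near equality. The same comparison among rapamycin nuclei, added after the values were seen, called 15 higher and 1 lower, where 16.6% and 13.0% of all genes were. In both treatments 14 of 40 channel genes were called higher and 1 lower (Scn3b), where 9.74% and 10.8% of all genes were. Within GABAergic nuclei 9 of 36 were called higher and 1 lower in both treatments, where 7.94% and 9.05% of all genes were. Within glutamatergic nuclei it was 10 of 36 higher and 1 lower, where 6.88% and 8.05% were. Both classes are part of the sum over all neurons.

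Span moved with this ratio. Over all genes the median log2 ratio of DIO over chow vehicle nuclei was -0.25 under 20 kb of span, 0.00 from 20 to 100 kb, 0.17 from 100 to 300 kb and 0.19 over 300 kb. For the channel genes it was -0.06, 0.36, 0.25 and 0.21 in the same bins, with 6, 13, 12 and 9 genes. Scn2b spans 12195 bp and Scn3b 22403 bp, while Cacna1c spans 610145 bp and Cacna2d3 817833 bp. The part of span in the ratios was not tested, and DIO and chow, each 1 capture, differ in more than diet.

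In OB vehicle nuclei 9 of 39 genes were called higher than in chow and 3 lower, where 12.4% and 15.6% of all genes were. The median log2 ratio was 0.07 over the channel genes and -0.04 over all. Cacna1c (0.42), Cacng2 (0.43), Scn8a (0.33), Cacna1e (0.30), Cacna1g (0.28), Cacna1i (0.28) and Cacna2d1 (0.31) were among the higher genes, and Scn2b (-0.37) and Scn3b (-0.37) among the lower. By class, 5 of 35 were higher and 4 lower in OB glutamatergic nuclei, where 8.58% and 11.3% of all genes were, and 6 of 36 higher and 2 lower in GABAergic nuclei, where 9.56% and 12.1% were. By the tag ratio 9 of 39 were higher and 4 lower in all neurons, 7 of 35 and 3 in glutamatergic and 6 of 36 and 3 in GABAergic nuclei, and the Cacna2d1 value in all neurons became 0.20, under the 1.2-fold line. Among rapamycin nuclei 10 were higher and none lower, where 17.1% and 12.3% of all genes were. In both treatments 4 were called higher (Cacna1e, Cacna1f, Cacna1g, Cacng2) and none lower, where 8.70% and 7.43% of all genes were. The DIO and OB comparisons share their chow sample. The OB matrix was made with another version of the counting software and another gene list, which cannot be told apart from OB itself.

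**Figure D5:**
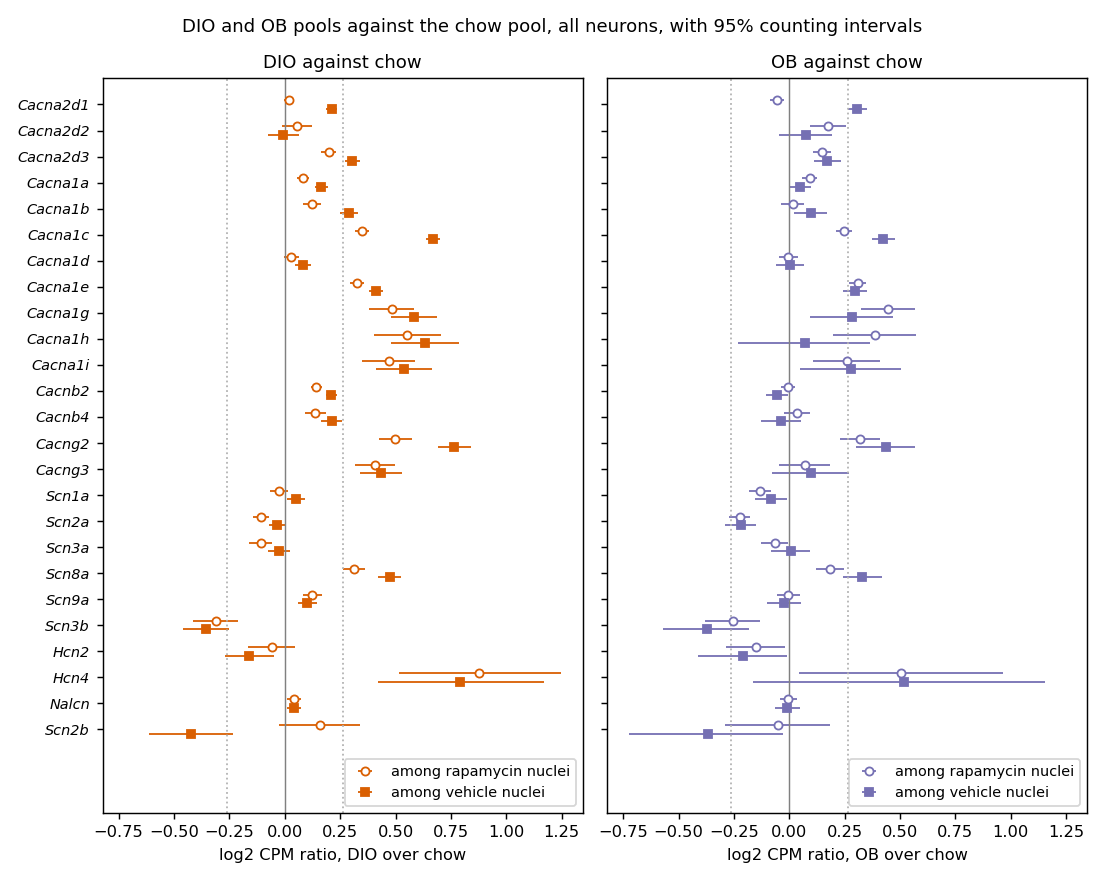
Log2 ratio of CPM in DIO (left) and OB (right) over chow, among rapamycin nuclei (open circles) and vehicle nuclei (filled squares) of all neurons, with exact 95% counting intervals, for the same 25 genes. Dotted lines mark 1.2-fold, and Cacna1c, Cacna1e, Cacna1g, Cacna1h, Cacna1i, Cacng2, Cacng3, Scn8a and Hcn4 lie right of the upper line under both treatments in DIO.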

How the data were processed

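Gene UMI counts and hashtag counts per barcode, deposited by the authors as raw matrices, were used as they stand. Per the submitters' processing notes they came from Cell Ranger 6.0.0 with mm10, while per the file headers the OB matrix came from version 7.0.1. Whether intronic reads were counted is not given in the sources used here. Nuclei needed 500 UMIs, 300 genes and a mitochondrial share under 5%, and 1 barcode failed. Hashtags were called with HTODemux (Seurat 5.3.0, positive quantile 0.99), and doublets between hashtags were removed, while those within a hashtag were not seen. Nuclei were clustered in scanpy 1.11.5 and leidenalg 0.10.2 (3000 variable genes without the 45, 40 components, 20 neighbours, resolution 1.0), giving 37 clusters. A cluster was named from at least 3 markers over 3-fold above other nuclei. Gated class matched the cluster's class for 95.9% of nuclei with a class in GABAergic and 89.7% in glutamatergic clusters. Sums were tested in edgeR 4.0.16, with DESeq2 1.42.0 as the alternative, and the fits were tested on simulated data. Single ratios carry exact 95% counting intervals, which cover counting error only. Gene spans and promoters are from RefSeq GRCm38.p6, in which all 45 genes matched. The channel genes, partner list, markers and tests were chosen with earlier results of these data known. The rule for named genes took 26 listed genes, any gene called in a fit, the 3 highest and 3 lowest ratios per pool, and any called alike in all pools. Values of a few of these genes are not reported here.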

Additional observations from a re-analysis of the deposited data

Results flagged for a closer look

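Scn2b, a sodium channel beta subunit, was called in opposite directions with rapamycin in 2 pools. The log2 ratio of rapamycin over vehicle neurons was 0.3047 in DIO (557 and 389 UMIs) and -0.2771 in chow (440 and 563 UMIs). With hashtags called by the tag ratio the chow value was -0.26, with TMM -0.25 and with equal cluster weights -0.26, all just under the 1.2-fold line. The difference between the pools was not tested, since each has 1 sample per treatment. In OB the groups had 14.2 CPM with rapamycin and 13.8 with vehicle. Span moved with these ratios: genes under 20 kb, among them Scn2b, had a median log2 ratio of 0.13 in DIO and -0.06 in chow, and its part in them was not tested.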

How the results depend on the processing

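Of 45 genes, the count called between the classes was 15, and over all alternatives it stayed between 11 and 18. Leaving out each pool in turn gave 11 to 16. The Cacna2d1 and Cacna2d3 contrasts kept their direction and call under every alternative run. For rapamycin across the pools, the count of 0 became 1 in all neurons without the chow pool (range 0 to 1 over the pools left out), 1 in GABAergic nuclei with no filter on low counts, and, for the interaction, 1 with no filter and 1 without the chow pool (range 0 to 1). All of these calls were Cacna2d1. The fits without the replicate block called 0 in each of the 3 rapamycin comparisons, as with the pool as block. The labels give no replicate numbers that pair samples across pools.

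Within pools, the count of 2 called in chow was 1 with hashtags by tag ratio, 1 with equal cluster weights and 0 at 1.5-fold. The count of 4 in DIO was 0 at 1.5-fold, and the count of 3 in OB was 1 by tag ratio and 0 at 1.5-fold. At 1.5-fold, DIO against chow had 6 in place of 23, and OB against chow 2 in place of 12. These counts at 1.5-fold are lower by construction, and the cause of the others was not tested. Cacnb1 in chow glutamatergic nuclei turned to -0.0138 when the whole cluster gave the class, an alternative added after seeing the data, as were all such ratios by cluster class and the comparisons among rapamycin nuclei. With clusters made with the channel genes, suprachiasmatic-like neurons averaged 1278 CPM of Cacna2d3 in place of 860, and 858 CPM of Nalcn in place of 823. Depth limits the OB vehicle sums most.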
